A study of Mus musculus with 20 samples.

Results

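SD-101 given alone was compared with saline in CD44+CD8+ effector T cells purified from mouse lungs bearing 4T1 tumours. SD-101 is a synthetic ligand of TLR9, a receptor for unmethylated CpG DNA, and 4T1 is a mouse mammary carcinoma line that grows in the lung. All animals carried the tumour and were dosed through the nose, the controls with saline only, and the labels name no strain, age, dose or interval between dosing and collection. The comparison used 6 SD-101 arrays and 5 saline arrays of the 20 in the series, and every gene with a probe set carrying exactly 1 symbol entered, which gave 17097 genes, each read by its probe set of highest mean over the 20 arrays. The other 9 arrays came from lungs given SD-101 with anti-PD-1 (5 arrays) or SD-101 with anti-PD-1 and the antibody labelled a-CD4 (4 arrays), and were used for the shared estimate of spread and for a few side-by-side values. Nothing in the labels ties an array to an animal of its own, and p-values here therefore rest on array-to-array spread that may be technical.

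TLR9 sits in endosomes, in the mouse those of dendritic cells, B cells and macrophages, and signals through MyD88 to IRF7 and NF-kB, which switch on type I interferons and inflammatory cytokines. Type I interferon acts on its receptor on nearly every cell, T cells included, and turns on antiviral genes whose promoters carry an interferon-stimulated response element. Interferon gamma, made by T and NK cells, acts on gamma-activated sites and induces guanylate-binding proteins, immunity-related GTPases and the antigen presentation machinery, with much overlap between both programmes.

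The values are log2 hybridisation signals, which ran from 1.78 to 13.44, with a median of 3.52 to 3.75 per array, so a value near 3 lies among the many probe sets with little or no signal. The number of arrays limits the precision, since arrays have no read depth. The CD8 gate was visible in both groups. Cd8a, which encodes the CD8 alpha chain, read 9.54, 10.68, 10.69, 10.13 and 11.21 on the saline arrays and from 10.38 to 11.18 (median 10.95) with SD-101, whereas Cd4 stayed between 2.69 and 3.42 on all 11 arrays. Neither gene was called, at adjusted p = 0.772 and 0.994 in limma. Transcripts of other lung cells were abundant in both groups. The mean log2 level of 18 endothelial markers was 7.80 to 9.84 on saline arrays and 6.96 to 9.27 on SD-101 arrays. For 20 lung epithelial and carcinoma markers it was 7.58 to 9.62 and 8.18 to 9.35, and for 16 fibroblast markers 6.69 to 8.76 and 7.48 to 8.84. The 14 T cell identity genes averaged 8.94 to 10.18 and 9.35 to 10.15. A value below therefore cannot be assigned to CD8 T cells alone. Saline-CTRL replicate 1 stood apart with a mean of 9.56 over 16 neutrophil markers, against 3.79 to 4.03 on the other saline arrays, and it had the lowest mean over 14 T cell identity genes, 8.94. SD-101 replicate 4 had the highest macrophage, dendritic cell and NK cell means. The arrays numbered 1 and 2 in both groups shared low immediate early genes (means of 7.99 to 8.37 against 8.90 to 9.08 on the others) and high ciliated airway genes (4.95 to 5.59 against 3.80 to 4.39).

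With SD-101, 57 genes passed an adjusted p under 0.05 (limma, Benjamini-Hochberg over all genes), 0.333% of those tested. Of these, 51 were higher with SD-101 (0.298%) and 6 were lower (0.0351%), and 1414 genes had an unadjusted p under 0.05. Of the genes that rose, 21 were in the lists of type I interferon-stimulated genes and of GTPases and presentation genes induced by interferon gamma, 3 were proteases of a single chymase and granzyme cluster and 7 were immunoglobulin segments. The genes that fell included 3 clock genes and the transcription factor gene Klf9. The groups did not overlap for 46 of the 51 genes that rose and 5 of the 6 that fell, and over all genes every SD-101 array lay above every saline array in 138 genes (0.807%) and below in 39 (0.228%). The median log2 difference over all genes was 0.01, and 53.2% of genes had a positive difference. Because the RNA came from bulk samples, fewer cells of a type and less RNA per cell cannot be told apart in any of these values.

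**Figure D1:**
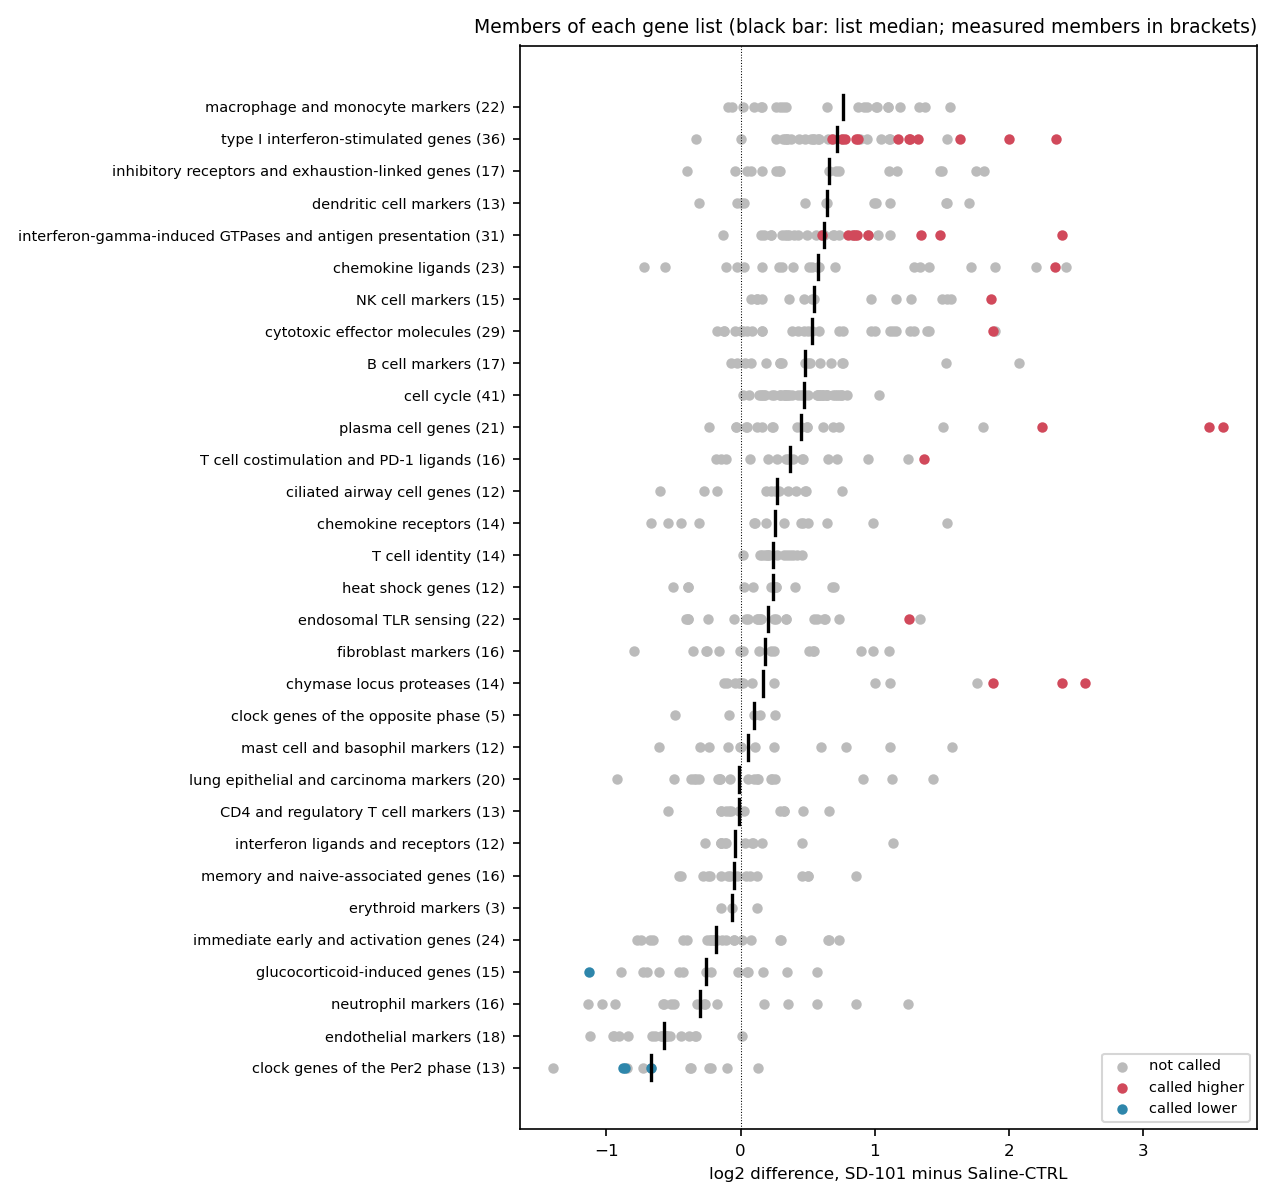
Log2 difference between SD-101 and saline (x axis) for each measured member of 31 gene lists (rows, ordered by list median; black bars are the medians, red and blue points are members called higher and lower). Type I interferon-stimulated genes hold 12 called members and a median of 0.72. Macrophage and monocyte markers hold the highest median, 0.76, with 0 called members, and Per2-phase clock genes hold the lowest median, -0.67.

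The type I interferon list has 36 members on the array, of which 12 rose, 0 fell and 35 had a positive difference. The list median was 0.72 against 0.01 for all genes. In 15 members every SD-101 array lay above every saline array. The shares over all genes were 0.298% called higher and 0.807% without overlap upwards. Leaving out 1 array gave 6 (without Saline-CTRL replicates 1, 3 or 4 or SD-101 replicate 3) to 16 called members (without Saline-CTRL replicate 5), with medians of 0.65 to 0.82. Other fits moved the count both ways: 17 with array weights and 13 with a filter on low values. It was 3 when only the 2 compared groups were fitted, and 0 with marker means of 5 other cell types as covariates. Ifi44l, an interferon-induced gene of the IFI44 family, read 3.16, 3.48, 3.44, 3.19 and 3.60 on the saline arrays and from 4.99 to 6.72 (median 5.66) on the SD-101 arrays. The saline arrays were all near the bottom of the scale and the groups were more than 1 log2 unit apart. The difference was 2.35 ± 0.26 (SE; 5 and 6 arrays), or 5.10-fold, with an adjusted p of 0.00027 in limma.

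Mx1, a dynamin-like GTPase that blocks influenza virus replication, read 4.34, 5.06, 4.74, 4.01 and 5.48 on the saline arrays and from 6.27 to 7.35 (median 6.65) with SD-101. All 6 SD-101 arrays were higher than the highest saline array, which was replicate 5, and Mx1 rose by 2.0 ± 0.34 (adjusted p = 0.0145, limma). Rsad2 encodes viperin, a radical SAM enzyme that makes an antiviral nucleotide. Its saline values were 5.31, 5.63, 5.00, 5.42 and 6.03 and its SD-101 values 6.46 to 7.84 (median 7.06), again without overlap, a rise of 1.64 ± 0.26 (adjusted p = 0.01, limma). Usp18, the protease that removes ISG15 from proteins and damps signalling at the type I receptor, read 6.82, 7.29, 6.81, 6.69 and 7.95 with saline and 8.16 to 8.87 (median 8.26) with SD-101. The groups did not overlap, with saline replicate 5 closest to the SD-101 arrays, and the rise was 1.32 ± 0.24 (adjusted p = 0.0186, limma).

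**Figure D2:**
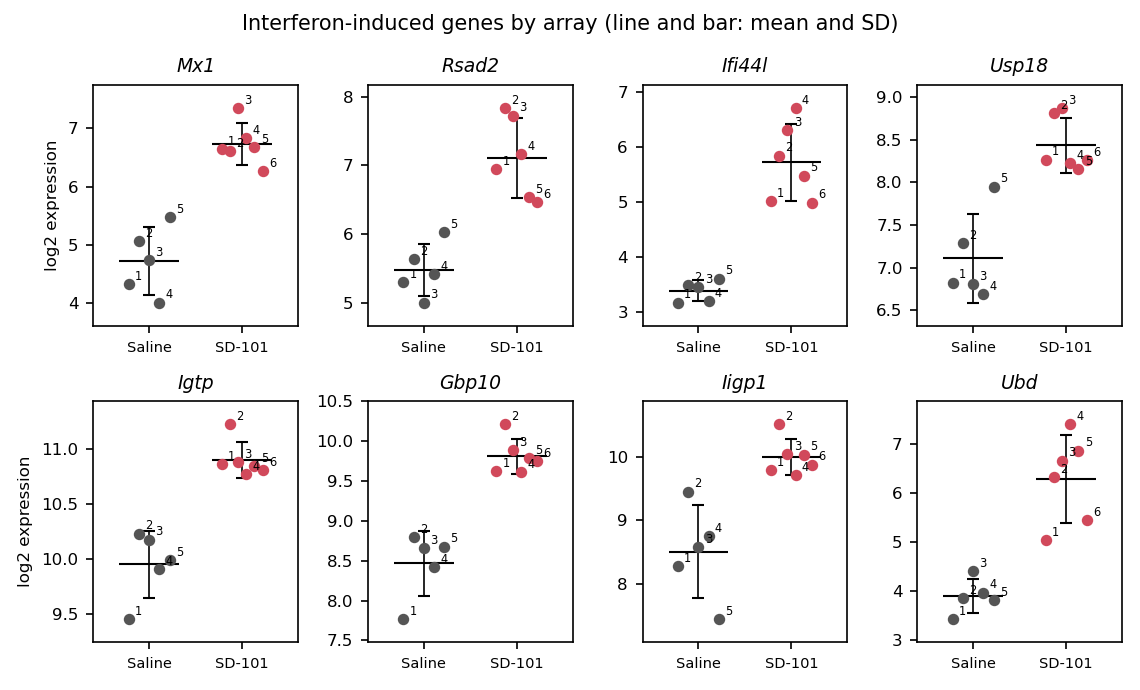
Log2 expression (y axes, a separate range per gene) of 8 interferon-induced genes on the 5 saline arrays (grey) and 6 SD-101 arrays (red), with the mean and SD; small numbers are the replicate. All SD-101 arrays lie above all saline arrays in each of the 8 genes, and saline replicate 5 is the highest saline array for Mx1, Rsad2, Ifi44l and Usp18.

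The other called members covered sensing, signalling and effector steps. Irf7, the transcription factor that amplifies interferon production downstream of TLR9, rose by 1.25 ± 0.25 (adjusted p = 0.0345, limma), from 7.04, 7.28, 7.75, 7.41 and 8.49 to between 8.53 and 9.44. Stat2, a subunit of the factor that binds the response element, rose by 0.78 (adjusted p = 0.0476). The nucleic acid sensors Zbp1, which binds Z-form nucleic acid, and Dhx58, a RIG-I-like helicase, rose by 1.18 and 0.86. Among effectors, Oas1g, of the 2'-5' oligoadenylate synthetase family, rose by 1.26, the RNA exonuclease gene Isg20 by 0.88, Rtp4 by 0.75 and the ADP-ribosyltransferase gene Parp14 by 0.68. Outside the list, the cytosolic DNA sensor adaptor Sting1 rose by 0.69, the DNA exonuclease gene Trex1 by 1.0, Parp9 by 0.54, Trafd1 by 0.71, Phf11a by 0.72, Lgals3bp by 0.80 and Rbm43 by 0.35. Members that did not pass included Ifit3, at a difference of 1.12 with an adjusted p of 0.105, Ifit1 at 1.04 (0.113) and Ifitm3, an entry inhibitor, at 0.00. The calls of Mx1, Rsad2, Ifi44l, Oas1g, Isg20, Zbp1 and Sting1 held whichever array was left out. Those of Usp18, Irf7, Stat2, Dhx58, Rtp4, Parp14, Parp9, Trex1, Trafd1, Phf11a, Lgals3bp and Rbm43 were lost in at least 1 such fit, Usp18 without Saline-CTRL replicates 1, 3 or 4 or SD-101 replicate 3 (adjusted p up to 0.0741) and Stat2 in 9 of 11 (up to 0.158).

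Promoter windows were read for the genes called higher, since the interferon-stimulated response element is the sequence through which the STAT2-containing factor acts. The core searched was GAAA, any 2 bases and GAAA again, on either strand, in RefSeq windows from 250 bases before to 50 after each start (GRCm38.p6). It was present for 10 of the 29 named genes called higher that have a window (34.5%), namely Gbp3, Igtp, Irgm1, Irgm2, Oas1g, Phf11a, Rbm43, Rsad2, Stat2 and Tgtp1, for 488 of 13605 tested genes (3.59%) and in 1131 of 32851 windows of the table (3.44%). A match is a description and not a measured binding site. The lines below give the 250 bases before the start for 5 of these genes with the core in capitals, chosen because they span the antiviral and GTPase groups. They are Rsad2 at chr12:26456453-26456702 on the minus strand, Oas1g at chr5:120887614-120887863 on the minus strand, Igtp at chr11:58199306-58199555 on the plus strand, Irgm1 at chr11:48871421-48871670 on the minus strand and Gbp3 at chr3:142559794-142560043 on the plus strand.
Rsad2: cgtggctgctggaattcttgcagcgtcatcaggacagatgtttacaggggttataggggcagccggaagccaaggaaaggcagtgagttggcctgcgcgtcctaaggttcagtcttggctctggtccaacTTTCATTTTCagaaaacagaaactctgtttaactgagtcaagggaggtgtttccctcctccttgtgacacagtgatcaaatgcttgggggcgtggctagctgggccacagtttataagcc
Oas1g: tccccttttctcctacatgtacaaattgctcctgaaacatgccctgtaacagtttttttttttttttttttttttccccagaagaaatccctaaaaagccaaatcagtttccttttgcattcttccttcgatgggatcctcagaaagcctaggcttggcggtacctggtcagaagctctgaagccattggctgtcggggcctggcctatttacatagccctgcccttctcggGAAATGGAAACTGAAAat
Igtp: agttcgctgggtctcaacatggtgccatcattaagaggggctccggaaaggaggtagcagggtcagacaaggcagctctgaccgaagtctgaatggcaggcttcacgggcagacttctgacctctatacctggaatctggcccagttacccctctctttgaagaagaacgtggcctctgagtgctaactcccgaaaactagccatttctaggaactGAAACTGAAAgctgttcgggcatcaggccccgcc
Irgm1: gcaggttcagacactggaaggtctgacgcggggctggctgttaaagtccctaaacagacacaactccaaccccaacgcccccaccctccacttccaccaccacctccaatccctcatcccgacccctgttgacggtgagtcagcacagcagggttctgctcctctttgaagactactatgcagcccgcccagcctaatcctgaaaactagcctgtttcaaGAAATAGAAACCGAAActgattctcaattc
Gbp3: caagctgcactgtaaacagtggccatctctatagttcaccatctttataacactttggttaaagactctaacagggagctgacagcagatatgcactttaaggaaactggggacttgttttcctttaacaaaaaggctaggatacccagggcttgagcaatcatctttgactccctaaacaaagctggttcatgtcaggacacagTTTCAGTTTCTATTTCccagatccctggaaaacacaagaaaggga
In Oas1g, Irgm1 and Gbp3 the capitals cover 2 overlapping matches. The gamma-activated site letters TTCNNNGAA, which can share bases with the core above, were found for 6 of the 29 genes (20.7%) and 8.76% of the tested genes.

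Genes induced by interferon gamma rose with them. Of 31 measured GTPases and antigen presentation genes, 9 rose and 0 fell, with a list median of 0.62 and a positive difference in 30. Leaving out 1 array gave 5 (without Saline-CTRL replicate 1 or SD-101 replicate 3) to 9 called members, with medians of 0.51 to 0.70. The fit of only the 2 compared groups gave 2 called members, and that with the 5 marker means as covariates gave 0. Igtp encodes an immunity-related GTPase that acts on pathogen vacuoles. It read 9.45, 10.23, 10.17, 9.91 and 9.98 with saline and 10.77 to 11.22 (median 10.85) with SD-101. No array overlapped and the rise was 0.95 ± 0.14, or 1.93-fold (adjusted p = 0.00651, limma). Gbp10, a guanylate-binding protein gene, read 7.77, 8.80, 8.66, 8.42 and 8.68 with saline and 9.61 to 10.21 (median 9.77) with SD-101. Saline replicate 1 was lowest and the difference was 1.35 ± 0.21 (adjusted p = 0.00959, limma). Iigp1, Irgm1, Irgm2, Tgtp1 and Gbp3, members of the same GTPase families, rose by 1.48, 0.83, 0.87, 0.80 and 0.85.

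Ubd, which encodes the ubiquitin-like modifier FAT10, had the largest rise of the list. Its saline values were 3.43, 3.87, 4.41, 3.97 and 3.82 and its SD-101 values 5.04 to 7.41 (median 6.50), and it rose by 2.40 ± 0.37 (adjusted p = 0.00959, limma). The lowest SD-101 array, replicate 1, was above the highest saline array, replicate 3. The immunoproteasome subunit gene Psmb9 rose by 0.61 (adjusted p = 0.0296, limma). Outside the list, H2-DMa, which loads peptide onto MHC class II, rose by 0.84 (0.0488). The list's own class II genes H2-Aa, H2-Ab1, Cd74 and Ciita differed by 1.11, 1.03, 0.83 and 0.70 and did not pass (0.289, 0.346, 0.493 and 0.635). The class I heavy chain genes H2-K1 and H2-D1 differed by 0.17 and 0.15 (adjusted p = 0.436 and 0.602). Cd274, the gene of the PD-1 ligand PD-L1, read 6.15, 6.70, 7.22, 6.87 and 7.07 with saline and 7.48 to 8.15 (median 7.69) with SD-101. The arrays did not overlap, but at a difference of 0.95 ± 0.22 and an adjusted p of 0.0986 in limma it did not pass. Without Saline-CTRL replicate 1, the calls of Irgm2, Tgtp1, Gbp3, Psmb9 and H2-DMa were lost, as they were without SD-101 replicate 3 (H2-DMa up to an adjusted p of 0.135), whereas Igtp, Gbp10, Iigp1, Irgm1 and Ubd kept theirs in all 11 fits.

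The interferon and receptor genes themselves were not among the calls. Ifnb1 read 2.46 to 2.92 with saline and 2.42 to 2.72 with SD-101, and Ifna2 2.38 to 2.92 and 2.24 to 2.48, all near the bottom of the scale. Of 12 ligand, receptor and kinase genes, 0 passed in limma (3 at an unadjusted p under 0.05, beside 1414 of all 17097 genes). Their median difference was -0.04, between -0.04 and 0.04 with 1 array left out (Ifnar1 0.16, Ifngr1 -0.15). Tlr9 read 2.63 to 3.14 across both groups and differed by -0.05 (95% interval -0.28 to 0.18; adjusted p = 0.957, limma). Of 22 genes of endosomal TLR sensing, Irf7 alone passed, with a list median of 0.20, which was 0.11 without SD-101 replicate 4 and 0.30 without SD-101 replicate 6; the lysosomal nuclease gene Pld4 differed by 1.33 (0.448), and its highest values, 5.90 and 7.52, were on SD-101 replicates 3 and 4, the arrays with the highest dendritic cell means.

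Ifng was split within the SD-101 group. It read 6.74, 8.05, 8.37, 8.30 and 8.34 on the saline arrays, and 7.90, 7.64, 9.42, 9.87, 9.98 and 9.75 on SD-101 replicates 1 to 6. Replicates 1 and 2 fell within the saline range and the other 4 above it, and the difference of 1.14 ± 0.48 did not pass (adjusted p = 0.518, limma). Pdcd1, which encodes PD-1, had the same division, at 6.42 and 6.35 in SD-101 replicates 1 and 2 and 7.01 to 8.21 in the others, against 4.90 to 6.92 with saline. The difference in Pdcd1 was 1.17 over all arrays (adjusted p = 0.426, limma), -0.03 among the arrays numbered 1 and 2 and 1.82 among the rest. For the chemokine gene Ccl3 the latter values were 0.38 and 2.66 and for the inhibitory receptor gene Lag3 0.53 and 2.39, whereas Mx1 differed by 1.92 and 2.03. The arrays numbered 1 and 2 were also those with low immediate early and high ciliated airway transcripts in both groups, and the part of that in the split was not tested.

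Among 29 cytotoxic effector genes, 1 rose, with a list median of 0.53 and 6 members whose groups did not overlap upwards. Over all genes, 0.298% rose and 0.807% did not overlap upwards. That gene was Gzmb, which encodes the serine protease granzyme B. It read 8.11, 9.43, 8.65, 8.43 and 6.89 with saline and 9.79 to 10.49 (median 10.14) with SD-101. Every SD-101 array was above every saline array and the saline arrays spread more widely; the difference was 1.88 ± 0.39, or 3.68-fold (adjusted p = 0.0441, limma). This call was lost in 10 of the 11 fits that left out 1 array, all but that without Saline-CTRL replicate 2 (adjusted p up to 0.127). Prf1, which encodes perforin, differed by 0.97 (adjusted p = 0.473), the T-bet gene Tbx21 by 1.27 (0.117) and the activating receptor gene Klrk1 by 1.39 (0.0914).

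Gzmb belongs to a cluster of granzyme and mast cell protease genes, and 2 more of its 14 measured members rose, with a list median of 0.17. That median was 0.58 without Saline-CTRL replicate 1 and 0.11 without Saline-CTRL replicate 4. Cma1, the mast cell chymase gene, read 3.76, 3.57, 3.87, 3.07 and 3.40 with saline and 4.96 to 6.78 (median 6.33) with SD-101. The groups were more than 1 log2 unit apart and the rise was 2.57 ± 0.28, or 5.92-fold (adjusted p = 0.00027, limma), and it kept its call in all 11 fits that left out 1 array. Mcpt2, a mucosal mast cell protease gene, read 4.07, 5.17, 6.24, 4.49 and 3.35 with saline and 5.81 to 8.21 (median 7.02) with SD-101. Saline replicate 3 overlapped SD-101 replicate 1, and the rise of 2.40 ± 0.48 (adjusted p = 0.0355, limma) was lost in 8 of the 11 fits, among them without Saline-CTRL replicates 1, 2, 4 or 5 (adjusted p up to 0.118). The same cluster's Gzmd, Gzme, Gzmf, Gzmg and Gzmn differed by -0.04 to 0.08 with no call, and Mcpt1 by 1.76 with no call.

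Mast cell and basophil markers were read beside these proteases. Of 12 measured, 0 passed in limma (3 at an unadjusted p under 0.05, all higher, beside 1414 of all 17097 genes). Of the 12, 7 had a positive difference and the median was 0.06. Without Saline-CTRL replicate 1, the array with the highest mean over this list, Cpa3 passed (adjusted p = 0.0214 in limma; 0.113 to 0.254 with any other array left out) and the median was 0.24; without SD-101 replicate 6 the median was 0.01. Cpa3, the carboxypeptidase A3 gene of mast cell granules, read 6.92, 5.44, 5.35, 4.37 and 5.76 with saline and 6.86 to 7.50 (median 7.14) with SD-101, overlapping only at saline replicate 1 (difference 1.57, adjusted p = 0.101). The mean over the list was 4.14 to 5.19 on the saline arrays and 4.43 to 5.00 on the SD-101 arrays. The basophil protease gene Mcpt8 differed by 1.11, the IgE receptor chain genes Fcer1a and Ms4a2 by 0.78 and -0.09, the tryptase gene Tpsab1 by 0.60, the stem cell factor receptor gene Kit by -0.31 and the transcription factor gene Gata2 by -0.61, none with a call. The part of mast cells in the protease values was not tested.

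**Figure D3:**
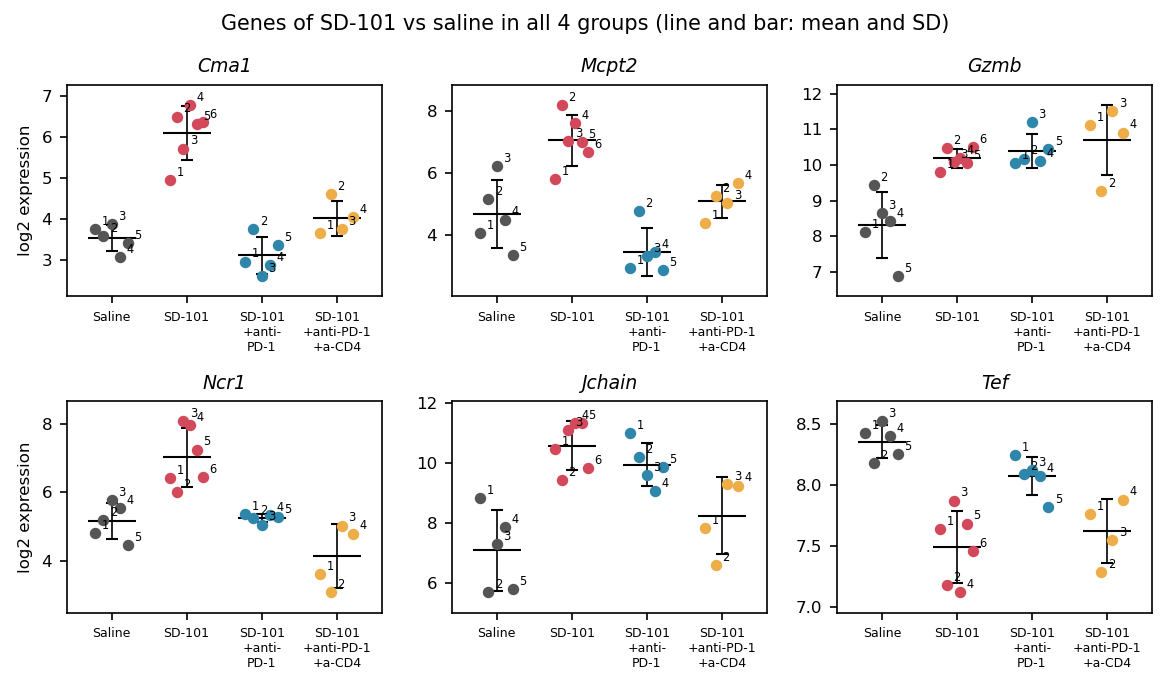
Log2 expression (y axes, a separate range per gene) of 6 genes in all 4 groups, by array (points, numbered by replicate) with the mean and SD; saline grey, SD-101 red, SD-101 with anti-PD-1 blue, SD-101 with anti-PD-1 and a-CD4 yellow. Cma1, Mcpt2 and Ncr1 have their highest mean with SD-101 alone, and Gzmb is high in all 3 groups given SD-101.

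Cma1 was lower where antibody was given with SD-101. It averaged 6.10 with SD-101 alone, 3.11 with SD-101 and anti-PD-1 and 4.02 with the a-CD4 antibody added, and both differences from SD-101 alone passed (-2.99 and -2.08; adjusted p = 5e-05 and 0.0118, limma). In these comparisons 4.77% and 0.983% of all genes passed, 1.25% and 0.409% in the lower direction and 3.52% and 0.573% in the higher. Mcpt2 was lower by 3.60 with anti-PD-1 (adjusted p = 0.00084) and by 1.98 with both antibodies (0.064), and Cpa3 by 2.48 (0.00119) and 1.61 (0.0538). Gzmb differed by 0.21 and 0.52 from SD-101 alone (adjusted p = 0.846 and 0.567), and Ifi44l by -0.59 and -0.66 (0.214 and 0.226). Isg20 was higher still with anti-PD-1, by 0.54 (adjusted p = 0.0452). These comparisons share the SD-101 arrays with the comparison against saline, so a high value in those arrays enters both. Mast cell and basophil markers averaged 4.43 to 5.00 with SD-101 alone, 3.62 to 4.42 with anti-PD-1 and 4.24 to 4.37 with both antibodies. In the same order, endothelial means were 6.96 to 9.27, 5.18 to 6.17 and 6.45 to 7.76. Ciliated airway means were 4.04 to 5.59, 6.12 to 7.05 and 3.99 to 5.37. The part of cell make-up in the differences between arms was not tested.

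NK cell and inhibitory receptor genes were largely positive without passing. Of 15 NK cell markers, Ncr1 rose, with a list median of 0.55. Ncr1, the gene of the activating receptor NKp46, read 4.80, 5.20, 5.78, 5.54 and 4.46 with saline and 6.01 to 8.06 (median 6.85) with SD-101. The arrays did not overlap and the rise was 1.86 ± 0.39 (adjusted p = 0.0447, limma), but the call was lost in 8 of 11 fits, including without Saline-CTRL replicate 1 (0.146) and without any of the saline arrays in turn. Ncr1 was lower by 1.77 with anti-PD-1 than with SD-101 alone and by 2.89 with both antibodies (adjusted p = 0.0144 and 0.0118). The mean over the NK list was 5.10 to 5.64 with saline and 5.66 to 7.14 with SD-101, highest in SD-101 replicate 4, and its part in the Ncr1 difference was not tested. Of 17 inhibitory receptor and exhaustion-linked genes, 0 passed in limma, with a median of 0.66. At an unadjusted p under 0.05 there were 7, all higher, beside 1414 of all 17097 genes. Cd160 differed by 1.82 (0.0986), Lag3 by 1.75 (0.149) and Havcr2, the TIM-3 gene, by 1.48.

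Immunoglobulin genes and Jchain showed the largest log2 differences among the called genes. Jchain, the joining chain of polymeric IgM and IgA, read 8.82, 5.68, 7.28, 7.85 and 5.78 with saline and 9.44 to 11.32 (median 10.77) with SD-101. Saline arrays varied by more than 3 log2 units and still lay below all SD-101 arrays, and the rise was 3.49 ± 0.59, or 11.2-fold (adjusted p = 0.0145, limma). Ighm, the IgM heavy chain gene, rose by 3.60 ± 0.64 (adjusted p = 0.0172), from 6.67, 2.67, 3.92, 5.19 and 3.31 to between 6.35 and 8.75, with saline replicate 1 above SD-101 replicate 6; its call was lost without Saline-CTRL replicate 3 (0.0545). Eaf2, an elongation factor partner placed here among plasma cell genes, rose by 2.25 (0.0441), a call lost in 8 of 11 fits (up to 0.128 without SD-101 replicate 3). These were the 3 called of 21 plasma cell genes, whose median was 0.45, with 1 to 6 called when 1 array was left out. In addition 7 immunoglobulin segment genes rose, by 1.04 to 4.62, each without overlap. Of 17 B cell markers 0 passed in limma (7 at an unadjusted p under 0.05, beside 1414 of all 17097 genes). Their median was 0.48, with the largest difference in Cd22, a B cell inhibitory receptor gene, at 2.07 (0.0707). The plasma cell list mean was 6.17 to 6.70 with saline and 6.81 to 7.64 with SD-101. This list shares Prdm1 and Irf4 with the T cell lists used here, and the part of plasma cells in these values was not tested.

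Chemokine genes followed with a list median of 0.58 over 23 ligands and 1 call. The median was 0.35 without SD-101 replicate 2. Cxcl9, an interferon gamma-induced ligand of CXCR3, read 5.57, 6.36, 4.83, 5.99 and 4.09 with saline and 5.98 to 8.70 (median 8.31) with SD-101. SD-101 replicate 1 overlapped the saline arrays and replicate 6 was just above them. The rise was 2.34 ± 0.49 (adjusted p = 0.0483, limma) and was lost in 8 of 11 fits, up to 0.161 without Saline-CTRL replicate 3. The other CXCR3 ligands Cxcl10 and Cxcl11 differed by 1.34 (0.280) and 2.20 (0.0986). The receptor gene Cxcr3 read 7.51 to 8.74 with saline and 8.75 to 9.41 with SD-101, without overlap, and did not pass (0.98, adjusted p = 0.216).

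Markers of myeloid and stromal cells had no calls. The median difference was 0.76 over 22 macrophage and monocyte markers, 0.64 over 13 dendritic cell markers, -0.30 over 16 neutrophil markers and -0.57 over 18 endothelial markers. Single arrays moved these medians: the neutrophil median turned to 0.57 without Saline-CTRL replicate 1 and was -0.65 without Saline-CTRL replicate 2, and the endothelial median was -0.91 without Saline-CTRL replicate 2 and -0.28 without SD-101 replicate 6. Without SD-101 replicate 4 the macrophage and dendritic cell medians were 0.34 and 0.41, and 3 macrophage markers passed without SD-101 replicate 6. At an unadjusted p under 0.05 in limma, 7, 6, 0 and 1 of these lists' members passed, in that order. Of all 17097 genes, 1414 passed at that threshold. The complement gene C1qa read 3.12, 2.72, 3.11, 2.81 and 2.79 with saline and 5.60, 5.34, 4.22, 5.22, 3.57 and 2.86 on SD-101 replicates 1 to 6. Of the SD-101 arrays, 5 were above the saline arrays and replicate 6 was among them (1.56 ± 0.37, adjusted p = 0.101, limma). Xcr1, a receptor gene of cross-presenting dendritic cells, reached 6.09 and 7.91 on SD-101 replicates 3 and 4 and was 2.61 to 3.60 on all other arrays of both groups. Vwf, the endothelial von Willebrand factor gene, was lowest on SD-101 replicates 5 and 6, at 7.08 and 7.04, and differed by -1.12 (adjusted p = 0.448).

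**Figure D4:**
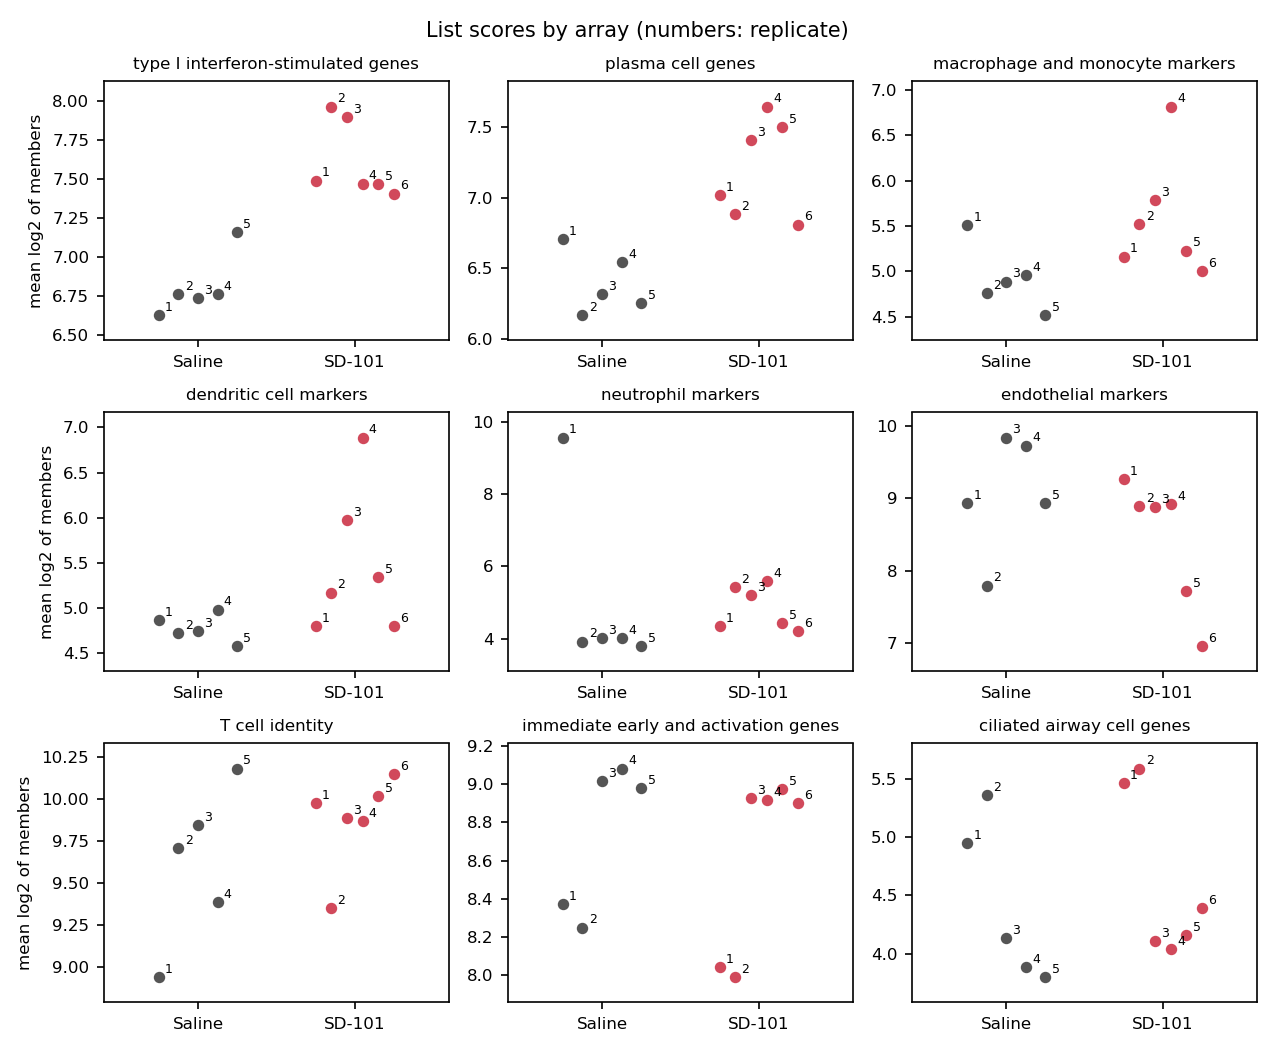
Mean log2 level over the measured members of 9 gene lists (y axes, a separate range per list) on each saline (grey) and SD-101 (red) array, numbered by replicate. All 6 SD-101 arrays lie above the 5 saline arrays for type I interferon-stimulated and plasma cell genes, saline replicate 1 is alone at 9.56 for neutrophil markers, and replicates 1 and 2 of both groups are low for immediate early genes.

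Clock genes were among those that fell. Of 13 genes that cycle with the phase of Per2 or close to it, 3 fell and 0 rose, and the median was -0.67 (-0.44 without Saline-CTRL replicate 3). In 4 the SD-101 arrays were all below the saline arrays. Over all genes, 0.0351% fell and 0.228% had every SD-101 array below. With 1 array left out, 1 to 3 members fell. Tef, a PAR bZIP factor that drives clock output, read 8.42, 8.18, 8.52, 8.40 and 8.25 with saline and 7.12 to 7.87 (median 7.55) with SD-101. The groups did not overlap and Tef fell by 0.86 ± 0.13 (SE) on the log2 scale (adjusted p = 0.00959, limma), a call kept in all 11 fits that left out 1 array. Per2, a repressor in the core clock loop, read 6.67, 5.51, 5.90, 5.68 and 5.90 with saline and 4.68 to 5.36 (median 5.04) with SD-101 and fell by 0.88 ± 0.18 (adjusted p = 0.0416). Nr1d2, which encodes the nuclear receptor REV-ERB beta, read 9.58, 9.46, 9.68, 9.61 and 9.21 with saline and 8.45 to 9.08 (median 8.98) with SD-101, a fall of 0.67 ± 0.13 (adjusted p = 0.0355). Neither gene's groups overlapped. The Per2 and Nr1d2 calls were lost in 9 and 8 of the 11 fits, for both most strongly without Saline-CTRL replicate 3 (0.103 and 0.117). When only the 2 compared groups were fitted, 0 genes were called lower, so Tef, Per2 and Nr1d2 were not called there. The same held with marker means of 5 other cell types as covariates.

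Dbp, a PAR bZIP relative of Tef, had the largest negative difference of the clock list without passing. It read 8.22, 7.82, 8.06, 7.76 and 7.41 with saline and 6.26, 4.95, 7.01, 6.37, 7.41 and 6.75 on SD-101 replicates 1 to 6. SD-101 replicate 5 was level with the lowest saline array and replicate 2 was far below the rest (-1.40 ± 0.34, adjusted p = 0.105, limma). The 5 genes of the opposite phase had a median of 0.10 (-0.00 without SD-101 replicate 2, 0.16 without SD-101 replicate 3) and 0 calls in limma (0 at an unadjusted p under 0.05), with Arntl, the BMAL1 gene, at 0.25 (0.834). Klf9, a Krüppel-like factor gene induced by glucocorticoids and also by the clock, read 9.95, 9.51, 9.65, 9.67 and 9.08 with saline and 8.05 to 8.84 (median 8.40) with SD-101. It fell by 1.13 ± 0.21 without overlap (adjusted p = 0.021, limma), a call lost in 5 fits, up to 0.0849 without Saline-CTRL replicate 1. It was the called member of 15 glucocorticoid-induced genes, whose median was -0.26, and Fkbp5, a standard glucocorticoid target, differed by 0.16. With anti-PD-1 added, Tef and Per2 were higher than with SD-101 alone, by 0.58 and 0.64 (adjusted p = 0.0198 and 0.0486, limma). In that comparison 3.52% of all genes were called higher. Both genes were named for low values in the same SD-101 arrays, which enter both comparisons. The mean over the Per2-phase list was 5.88 to 6.46 with SD-101 alone and 6.43 to 6.60 with anti-PD-1 added. With both antibodies it was 5.89 to 6.21. The labels do not give the time of day of collection.

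**Figure D5:**
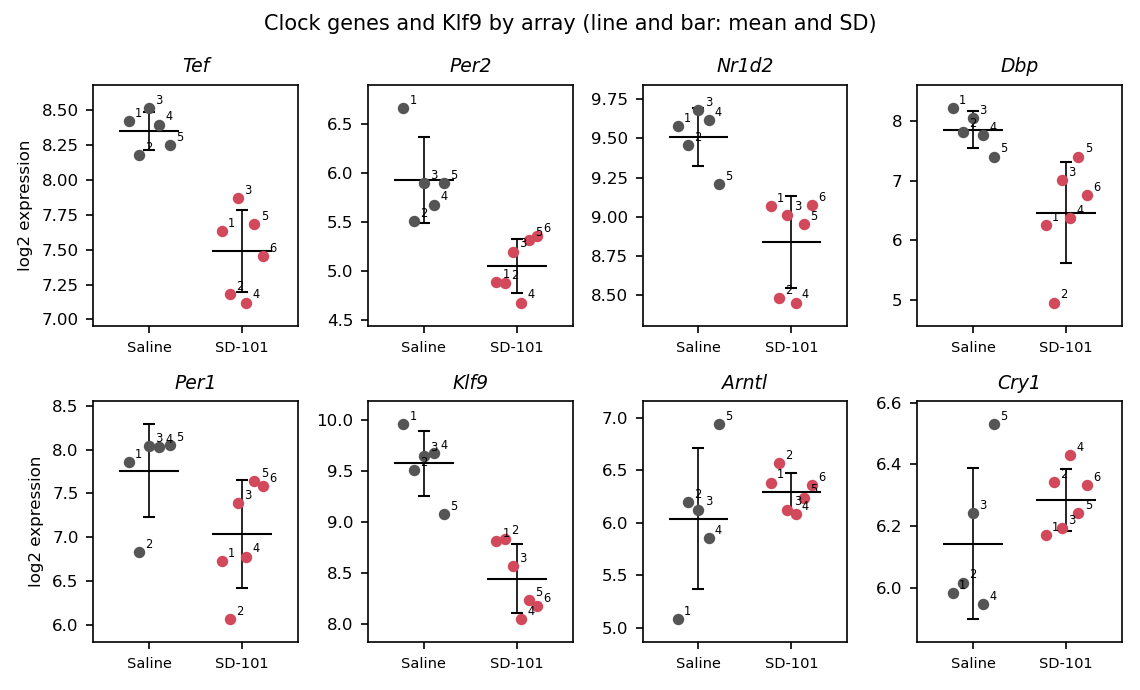
Log2 expression (y axes, a separate range per gene) of 7 clock genes and Klf9 on the 5 saline (grey) and 6 SD-101 (red) arrays, with the mean and SD and replicate numbers. The SD-101 arrays lie below the saline arrays for Tef, Per2, Nr1d2 and Klf9, while Arntl and Cry1, of the opposite phase, overlap.

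The promoter windows of Tef are printed because CLOCK and BMAL1 act through the E-box, and both of its windows in the RefSeq table with a match lie within the 250 bases before a start. The letters searched were CACGTG, the same on both strands, which were present for 2 of 5 named genes called lower that have a window (Tef and Slc12a5) and for 10.2% of the tested genes. The windows are at chr15:81802423-81802672 and chr15:81811164-81811413 (GRCm38.p6, plus strand), with the E-box in capitals.
Tef upstream start: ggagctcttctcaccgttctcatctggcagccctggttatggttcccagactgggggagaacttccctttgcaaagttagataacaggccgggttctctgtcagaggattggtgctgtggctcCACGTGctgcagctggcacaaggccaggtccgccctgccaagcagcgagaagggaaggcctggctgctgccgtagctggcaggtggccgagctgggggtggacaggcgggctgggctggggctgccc
Tef downstream start: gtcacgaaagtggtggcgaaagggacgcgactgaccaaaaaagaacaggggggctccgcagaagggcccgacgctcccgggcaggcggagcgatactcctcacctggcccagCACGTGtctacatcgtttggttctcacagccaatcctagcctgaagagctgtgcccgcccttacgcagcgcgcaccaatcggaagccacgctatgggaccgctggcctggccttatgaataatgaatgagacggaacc
The D-box letters TTATGTAA were in the windows of 0 of the 5 genes and of 0.801% of the tested genes.

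The remaining calls were single genes. Csprs, a gene of the Sp100-related region on which near-identical copies can share probes, rose by 1.28 ± 0.18 (adjusted p = 0.00344, limma), from 4.67, 4.77, 4.36, 4.70 and 4.94 to between 5.44 and 6.34, in all 11 fits. Cysltr2, a cysteinyl leukotriene receptor gene, rose by 1.57 (0.027), from 3.24, 3.32, 3.87, 3.48 and 3.52 to between 4.51 and 5.43. Tnfsf4, the OX40 ligand gene and the called member of 16 costimulation genes, rose by 1.37 (0.0347), from 3.97, 4.53, 4.32, 4.45 and 4.54 to between 4.68 and 6.19. In all 3 genes every SD-101 array was above every saline array. Cybc1, a chaperone gene of the phagocyte oxidase, rose by 0.49, Nabp1, of a single-strand DNA-binding complex, by 0.58, and the phospholipase gene Plaat3 by 0.74. Cytl1, a secreted cytokine-like protein gene, fell by 1.46 (0.0416), and the potassium chloride transporter gene Slc12a5 fell by 0.81 (0.0345) at levels of 2.56 to 4.17. Apart from that of Csprs, these calls were each lost without Saline-CTRL replicate 1 (Tnfsf4 up to 0.114 there).

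Lists of cell cycle, immediate early, memory and T cell marker genes gave no call. Which cells the cell cycle and immediate early transcripts came from was not tested. All 41 cell cycle genes had a positive difference, with a median of 0.47, and 0 passed (10 at an unadjusted p under 0.05); Mki67 read 6.57 to 8.20 with saline and 7.55 to 8.88 with SD-101 (0.75, adjusted p = 0.348, limma). Of 24 immediate early genes 0 passed (3 unadjusted), with a median of -0.18, and of 16 memory and naive-associated genes 0 passed (2 unadjusted), with a median of -0.05. The 14 T cell identity genes had a median of 0.24 and 13 CD4 and regulatory T cell markers had a median of -0.01, with 0 and 1 members at an unadjusted p under 0.05. Among all 17097 genes, 1414 had such an unadjusted p in limma. Several of these list medians moved when 1 array was left out: cell cycle to 0.26 (without Saline-CTRL replicate 3) and 0.67 (without Saline-CTRL replicate 4), T cell identity to 0.08 (without Saline-CTRL replicate 1) and 0.42 (without Saline-CTRL replicate 5), immediate early genes to -0.07 (without SD-101 replicate 2), memory genes to 0.08 (without SD-101 replicate 2) and CD4 markers to 0.07 (without Saline-CTRL replicate 3). In the exact permutation test over the 11 arrays (2-sided; 462 splits, smallest possible p 0.00216), Cd274 reached 0.00216, Prf1 0.026, Pdcd1 and Mki67 0.0411, Ifng 0.0584 and Klrg1 0.219, values not adjusted over the 12 genes tested this way, of which the lowest limma adjusted p was 0.0986.

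The calls depended on the fit. No called gene changed sign in any of the 24 alternative fits. For the 46 higher and 5 lower genes whose groups did not overlap, leaving out arrays could not change the sign. Leaving out 1 array gave 25 to 64 calls, and 16 of the 49 named called genes kept their call in all 11 such fits. With the mean levels of B cell, plasma cell, NK cell, macrophage and endothelial markers as covariates, 0 genes passed in limma and 1045 had an unadjusted p under 0.05. The plasma cell and NK cell means were higher on every SD-101 array than on every saline array. That fit therefore cannot fully separate these covariates from the treatment. In that fit Mx1 went from 2.0 to 1.65, Rsad2 from 1.64 to 1.97, Igtp from 0.95 to 1.14, Cma1 from 2.57 to 2.33 and Tef from -0.86 to -1.08. Genes that are members of the covariate lists, such as Jchain, Eaf2 and Ncr1, are adjusted for a mean that contains them, and their values in that fit are not given. The medians of the type I interferon and interferon gamma lists were 0.91 and 0.59 there. Without Saline-CTRL replicate 1 and SD-101 replicate 4 together, 19 genes passed. Other probe sets of the called genes numbered 29 for 20 genes, and 25 had the same sign; the 4 of opposite sign all had an unadjusted p above 0.05.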

How the data were processed

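CD44+CD8+ T cells purified from tumour-bearing mouse lungs were hybridised, 1 array per sample, on an Affymetrix perfect-match array. The authors deposited log2 values for 45141 probe sets per array. The submitters' processing notes name affy, RMA, limma and the build mm8, with no versions and no account of each step. Probe sets were named through the platform annotation: 28898 carried exactly 1 symbol, 551 several and 15692 were not listed, and 104 were controls. The values were used as deposited, with no further scaling. RMA compresses differences at low signal.

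Groups came from the sample titles. Group means were fitted on all 20 arrays with limma 3.58.1 (lmFit and eBayes, R 4.3.3), and the contrast SD-101 minus saline was adjusted by Benjamini-Hochberg over 17097 genes and called under 0.05. The procedure was tested on simulated data. Lists were described by counts and medians, with no set test.

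The genes named were every called gene (except predicted genes and immunoglobulin or T cell receptor segments, given as counts), the members with the lowest p-values of every list (at most 4), and 12 genes chosen singly; list members beyond these are named for their values only and were chosen after their values were seen. The comparison and the lists were chosen with earlier results of these data known. Genes without a probe set of exactly 1 symbol were not analysed here. Alternatives covered the probe set rule, scaling, a filter on low values, the variance model, array weights, the groups fitted, a replicate block, cell type scores and leaving out each array. Promoters are from RefSeq (GRCm38.p6).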

Additional observations from a re-analysis of the deposited data

Results flagged for a closer look

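In 7 of 146 groups of 5 or 6 arrays tested, the highest or lowest array lay apart by Dixon's ratio, and chance gives about 1 in 20. On Saline-CTRL replicate 1 these were the mean of neutrophil markers, 9.56 (other saline arrays 3.79 to 4.03), the mean of mast cell and basophil markers, 5.19 (4.14 to 4.34), the mean of costimulation and PD-1 ligand genes, low at 5.25 (5.67 to 5.72), and Ifng, low at 6.74 (8.05 to 8.37). On Saline-CTRL replicate 5 it was the mean of type I interferon-stimulated genes, 7.16 (6.63 to 6.76), which is still below the lowest SD-101 array, at 7.41. On SD-101 replicate 2 they were the mean of T cell identity genes, low at 9.35 (9.87 to 10.1), and Igtp, high at 11.2 (10.8 to 10.9).

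Outside the table of genes, 16139 probe sets other than controls carried no symbol or several. When all 45037 probe sets were fitted, 17 of these were higher with SD-101 and 5 lower, 0.136% of them.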

How the results depend on the processing

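No called gene changed direction in any alternative, though leaving out arrays could not change it where the groups did not overlap. The 57 calls (51 higher, 6 lower) became 36 (29, 7) with each array centred on its median, 119 (95, 24) with array weights, 10 (10, 0) when only the 2 groups were fitted and 0 (0, 0) with 5 cell type scores as covariates, where limma still gave 1045 genes with an unadjusted p under 0.05; for the fit of 2 groups, 1210 genes had one. Leaving out 1 array gave 25 to 64 calls, 23 to 54 higher and 1 to 10 lower; 25 came without SD-101 replicate 5, and the named calls lost numbered 32 without Saline-CTRL replicate 1, 29 without SD-101 replicate 3 or 5 and 10 without SD-101 replicate 1 or 6. Of settings chosen after seeing the data, leaving out Saline-CTRL replicate 1 and SD-101 replicate 4 gave 19 (18, 1), leaving out the arrays numbered 1 and 2 of both groups gave 107 (53, 54), of which 30 were among the 57, and a term for those arrays gave 80 (62, 18), with all 57 among them. The cause of these shifts was not tested. The mean of probe sets (54), every probe set fitted (46), quantile normalization (47), the low-value filter (62) and the trended robust variance (54) stayed within 1.5 times the count. Deviations of same-numbered arrays correlated weakly over all genes (-0.13 to 0.22), so the numbers were not taken as pairs. The arrays numbered 1 and 2 of both groups did share low immediate early and high ciliated airway genes. With the replicate block 42 genes passed (35 higher, 7 lower), 39 of them among the 57. A comparison of protease protein sequences was planned and not run, since no protein table was used. Signals near the bottom of the scale, such as those of Tlr9, Ifnb1 and Slc12a5, limit what a difference can show.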

Other observations

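Airway, epithelial and stromal transcripts were read from further lists. The mean of 20 lung epithelial and carcinoma markers was 7.58 to 9.62 with saline and 8.18 to 9.35 with SD-101, with a median difference of -0.01 and 0 calls in limma (2 members at an unadjusted p under 0.05). Ciliated airway genes had a median difference of 0.27 over 12 members (0 unadjusted), and fibroblast markers 0.18 over 16 (4 unadjusted). Heat shock genes had a median of 0.24 over 12 members (6 unadjusted, 5 of them higher) and chemokine receptors 0.26 over 14 (4 unadjusted). Of all 17097 genes, 1414 had such an unadjusted p. Most of these medians moved when 1 array was left out: the epithelial one ran from -0.32 (without Saline-CTRL replicate 5) to 0.24 (without Saline-CTRL replicate 2), the fibroblast one from -0.22 to 0.42 (without the same arrays), the ciliated one from 0.11 (without SD-101 replicate 2) to 0.49 (without Saline-CTRL replicate 2), and the heat shock one fell to 0.12 without Saline-CTRL replicate 1.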
